A study of Mus musculus with 20 samples.

Results

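The adipocyte-specific loss of Tmem120a was examined on low fat diet (LFD, 10.5% fat), in 10 of the 20 libraries of the series. They were the 5 knockout libraries numbered 6 to 10 and the 5 control libraries numbered 1 to 5, chosen by genotype and diet alone. RNA came from subcutaneous inguinal white adipose tissue (iWAT) of female C57BL/6 mice aged 6 months, kept on the diet for 15 weeks. The floxed line was C57BL/6 N Tac and the Cre line C57BL/6 J. All 10 libraries came from mice with both Tmem120a alleles floxed around exons 2 and 3 (Tmem120a fl/fl). Controls were littermates without Cre, labelled wild type, and the knockouts (Ad-Tmem120a-/-) also carried Cre driven by the adiponectin promoter, which is active in mature adipocytes, so that other cells of the pad keep the gene. The other 10 libraries, of the same genotypes on high fat diet (HFD, 58% fat), were used to ask whether the genotype effect differed between diets, for levels beside those on LFD and in an alternative fit of all 20 libraries.

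Tmem120a encodes a membrane protein of the nuclear envelope that is abundant in fat, and Tmem120b is its paralog. Proteins of this kind hold parts of the genome at the nuclear periphery, where many genes are silent, and are studied in fat because mutations of the nuclear lamina cause lipodystrophies. The inguinal pad of a female mouse also holds mammary gland, a lymph node and vessels, and its adipocytes can take on the thermogenic character of beige fat.

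The deleted exons of the full-length transcript (ENSMUST00000043378, 12 exons) are shown because they decide which transcripts of the gene can be read as knockout. Both are coding, lie on the minus strand of mouse assembly NCBIM37 (mm9) and are printed 5′ to 3′ in lower case with nothing capitalised. Together they hold 236 bases, which is not a multiple of 3.
Exon 2, chr5:136218151-136218269: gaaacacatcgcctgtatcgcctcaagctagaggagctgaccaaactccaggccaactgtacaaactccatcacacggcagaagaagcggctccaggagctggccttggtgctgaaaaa
Exon 3, chr5:136217836-136217952: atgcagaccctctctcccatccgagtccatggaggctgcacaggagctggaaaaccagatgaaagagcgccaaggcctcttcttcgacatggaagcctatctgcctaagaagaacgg

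Each library held between 54605101 and 75022219 estimated counts, and the number of transcripts detected between 40451 and 52487 in controls and between 32455 and 51235 in knockouts, lowest in knockout replicates 9 and 10. Values are given as TPM, the abundance unit of Salmon, scaled for transcript length and library total, of which the small RNAs 7SK and AC157822.1 took between 18.7% and 28.2%. Adipocyte markers were abundant in every library, with Adipoq between 638 and 1156 TPM and Fabp4 between 10990 and 17540 TPM. Summed mammary epithelial genes lay between 641 and 1272 TPM and macrophage genes between 1677 and 2730 TPM. The most abundant macrophage list member was Lpl, at 461 to 1843 TPM. Lpl is also on the white adipocyte list, so this sum does not stand for macrophages alone. Since the tissue was sequenced in bulk, fewer cells of a type and less RNA per cell cannot be told apart. The p-values measure the spread between these libraries.

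Tmem120a (ENSMUSG00000039886, chr5:136211355-136220141) was examined first. Its 4 annotated transcripts differ in whether they hold the deleted exons, and their values were compared separately. The full-length transcript had 49.8, 66.8, 84.5, 129.5 and 80.8 TPM in control replicates 1 to 5 and 20.4, 36.2, 26.5, 7.75 and 19.4 TPM in knockout replicates 6 to 10. All knockout libraries lay below all controls, and the highest knockout value was that of replicate 7. A short transcript with a retained intron (ENSMUST00000141779), which holds none of the bases of exons 2 and 3 printed above, had 0, 1.06, 0, 1.39 and 2.39 TPM in controls and 9.16, 36.5, 25.3, 10.4 and 8.77 TPM in knockouts. For this transcript the order was turned around, with all 5 knockout libraries above all controls (exact permutation test, two-sided, log2(TPM + 1), p = 0.00794 for each of these 2 transcripts, the smallest value that 5 against 5 can give). A full-length RNA that lacks only exons 2 and 3 is not among the annotated transcripts. The division of reads between these transcripts is therefore uncertain in knockouts.

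The full-length transcript took between 86.1% and 98.7% of the TPM of the gene in controls and between 36.04% and 68.4% in knockouts. The other transcript that holds both exons whole (ENSMUST00000127156) averaged 2.17 ± 3.31 TPM in controls and 1.13 ± 1.31 TPM in knockouts (SD, n = 5, exact permutation test, p = 0.667). ENSMUST00000153399, which holds 38 bases of exon 2 and all 117 of exon 3, was at 0 in all libraries but knockout replicate 8, at 1.504 TPM. Over the 4 transcripts the gene averaged 85.4 ± 28.4 TPM in controls and 41.5 ± 21.9 TPM in knockouts (SD, n = 5), and knockout replicate 7, at 74.0 TPM, lay within the control range (exact permutation test, p = 0.0317). On estimated counts scaled by the trimmed mean of M-values (TMM) all knockout libraries lay below all controls.

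In the fit across all genes the log2 fold change of knockout over control, on estimated counts, was -1.61 for Tmem120a (standard error, SE, 0.343, adjusted p = 0.929, edgeR's quasi-likelihood test). With offsets for the mean transcript length it was -1.19 (adjusted p = 0.912, edgeR). DESeq2, which the study names as its test, called it on the same genes (log2 fold change -1.61, adjusted p = 0.0025). For the genes named below, adjusted p in edgeR was 0.929 or higher wherever no other value is given. The effect on LFD and that on HFD differed by 0.07 on the log2 scale (adjusted p = 0.9999, edgeR's quasi-likelihood test of the interaction). The paralog Tmem120b measured 26.6, 46.1, 44.3, 71.8 and 38.0 TPM in controls and 41.5, 91.8, 56.5, 37.5 and 35.7 TPM in knockouts. The groups overlapped, and the log2 fold change of -0.003 (SE 0.381) changed sign with the setting. Of 17 genes of the nuclear lamina and inner envelope on a list that includes both, 1 other passed an unadjusted p under 0.05 (5.11% of all genes). It was Lmnb1, encoding lamin B1, at 0.83 (SE 0.289), and at 0.45 without knockout replicate 9. Lmnb1 had 5.47 to 7.54 TPM in controls and 3.81, 8.29, 7.95, 16.2 and 7.46 TPM in knockouts. In TPM replicate 9 stood apart and replicate 6 lay below all controls. On TMM scaled counts all knockout libraries lay above all controls.

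**Figure D1:**
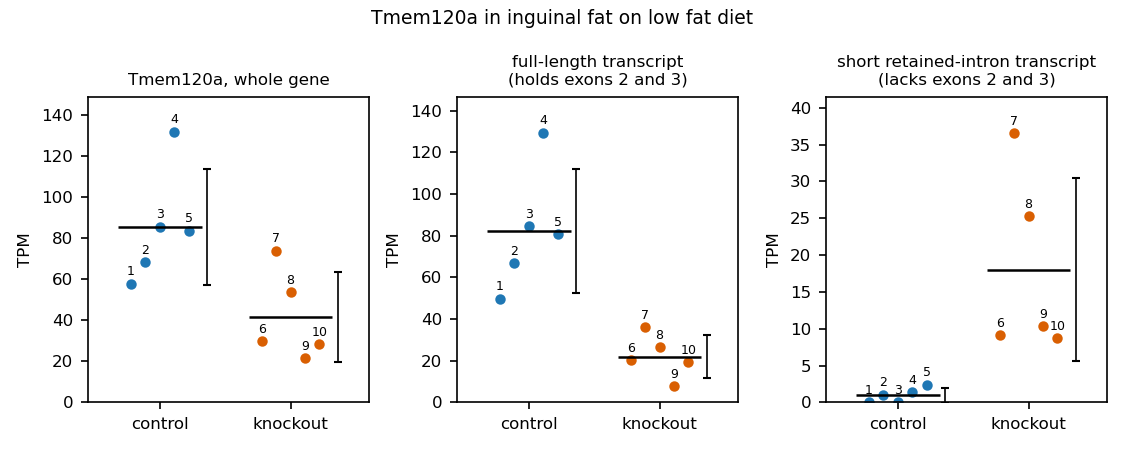
TPM of Tmem120a as a gene and of 2 of its transcripts on LFD, with 1 point per library labelled by replicate number, a horizontal line at the group mean and a bar of 1 SD either side. The full-length transcript separates the groups downwards, 7.75 to 36.2 TPM in knockouts against 49.8 to 129.5 in controls, and the transcript without the deleted exons upwards, 8.77 to 36.5 against 0 to 2.39.

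Of 15717 genes averaging 0.5 TPM or more, 1 gene (0.00636%) was called at an adjusted p under 0.1, and it was higher in knockouts. At an unadjusted p under 0.05 there were 803 genes (5.11%), of which 526 (3.35%) were higher and 277 (1.76%) lower in knockouts. The median log2 fold change over all genes tested was -0.02, and 47.2% were above 0. In TPM, the groups did not overlap for 204 genes higher (1.3%) and 16 genes lower (0.102%) in knockouts, whereas on counts scaled by the trimmed mean of M-values (TMM) the numbers were 114 (0.725%) and 58 (0.369%). DESeq2 called 17 genes (0.108%), 13 of them higher and 4 lower, and 30 with no filter on low values.

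The called gene was Gm11868 (ENSMUSG00000050550), annotated as a pseudogene at chr4:18771349-18772928 of mm9. It had 0, 0.0158, 0, 0.0156 and 0 TPM in controls and 4.10, 5.10, 4.04, 6.01 and 4.73 TPM in knockouts. No control library held more than 1 count and each knockout library held between 218 and 306, so with a floor of 3 counts per library it was at least 102-fold higher in knockouts (adjusted p = 0.000187, edgeR's quasi-likelihood test). Its sequence matched a transcript of Cyb5r4, a cytochrome b5 reductase on chromosome 9, at 1553 of 1580 bases (98.3%), and its reads are uncertain between these genes. Cyb5r4 itself lay between 26.5 and 30.7 TPM in controls and between 24.8 and 41.9 TPM in knockouts, at -0.12 on the log2 scale (SE 0.104).

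Next by p was Zfp949 (chr9:88442858-88465924), encoding a zinc finger protein. It had 8.35, 10.2, 6.65, 5.30 and 9.98 TPM in controls and 19.5, 16.1, 13.3, 18.8 and 17.2 TPM in knockouts, without overlap. Knockouts exceeded controls by 1.18 on the log2 scale (SE 0.166, adjusted p = 0.117, edgeR), and it was past the threshold with DESeq2, with all 20 libraries in 1 fit, without control replicate 1 and with a covariate for transcripts detected. On HFD it was 0.63 (SE 0.172), and the adjusted p of the difference between the diets was 0.9999 (edgeR). In TPM the HFD means were 13.3 ± 4.64 in control and 13.9 ± 1.94 in knockout libraries (SD, n = 5), and the groups overlapped. The gene lies 1470248 bases from Cyb5r4 on the same chromosome.

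**Figure D2:**
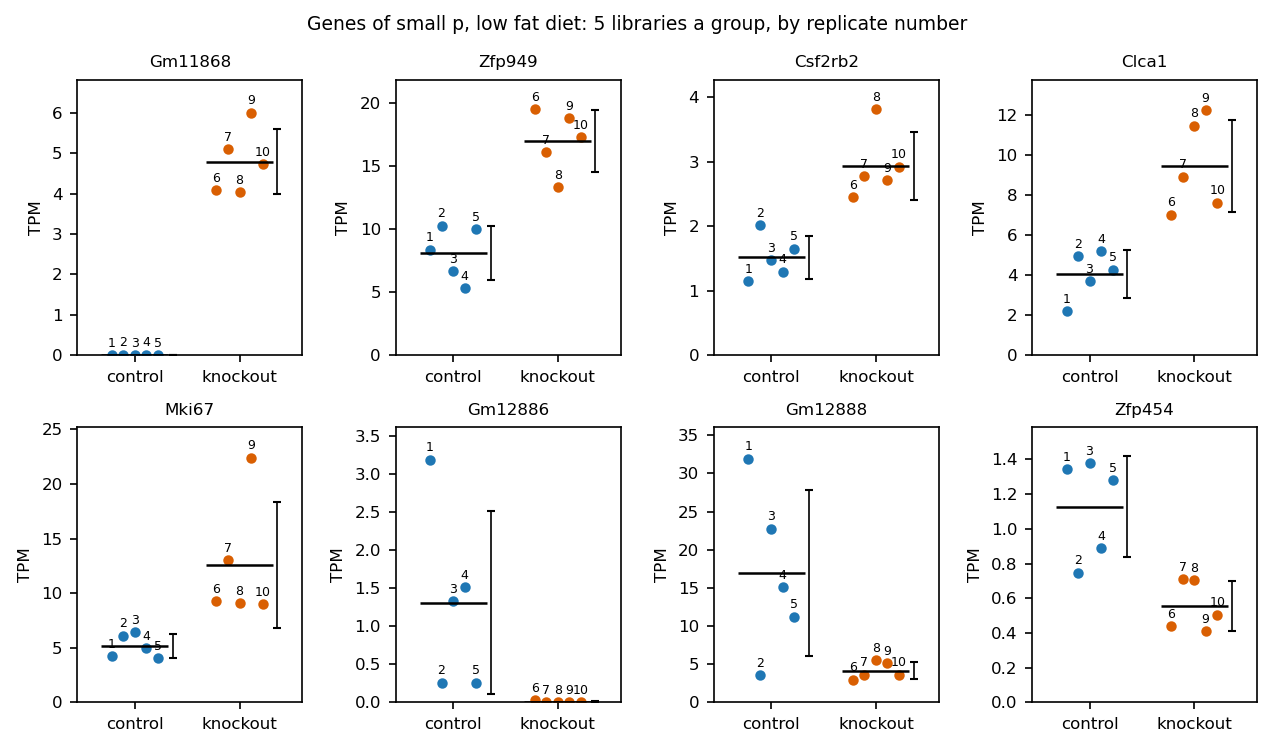
TPM on LFD of 8 genes among those of smallest p, with 1 point per library labelled by replicate number, a line at the group mean and a bar of 1 SD either side. Gm11868 is near 0 in controls and between 4.04 and 6.01 TPM in knockouts, Gm12886 is near 0 in knockouts, and Gm12888 overlaps through control replicate 2.

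Other genes among the 12 of smallest p higher in knockouts had separate roles. Csf2rb2, a receptor subunit of the interleukin 3 family, had between 1.15 and 2.01 TPM in controls and between 2.45 and 3.82 TPM in knockouts, a log2 difference of 0.88 (SE 0.167, adjusted p = 0.89, edgeR). Its reads could be shared with its paralog Csf2rb. Gm16698, an immunoglobulin heavy chain V gene, was at 0 in 4 control libraries and at 0.0809 TPM in control replicate 3, against 0.118 to 5.79 TPM in knockouts. Clca1, a chloride channel accessory protein with close paralogs, had between 2.18 and 5.20 TPM in controls and between 7.01 and 12.2 TPM in knockouts (1.15, SE 0.238). St8sia6, a sialyltransferase, was at 0.79 and the gene Tnfaip8 at 0.81, the latter being 1 of 2 overlapping annotated genes of that name on chromosome 18, so that its reads are uncertain. DESeq2 called all of these but St8sia6.

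The 12 of smallest p among those lower in knockouts were led by Gm12886 (chr4:121087340-121095704), a protein-coding gene with no assigned name. It had 3.19, 0.259, 1.33, 1.51 and 0.261 TPM in controls and at most 0.0301 TPM in knockouts. With no knockout library above 1 count, the control mean was at least 12.7-fold higher than that of knockouts (adjusted p = 0.611, edgeR). Control replicates 2 and 5 held 8.06 and 8 counts, so this bound is for the mean and not for each control library. On HFD the means of Gm12886 were 1.44 TPM in control and 0.0555 TPM in knockout libraries. The HFD groups overlapped, with control replicate 15 at 0 and knockout replicate 21 at 0.2775 TPM. Gm12888, annotated on the same chromosome, had 31.9, 3.54, 22.8, 15.1 and 11.2 TPM in controls and between 2.97 and 5.51 TPM in knockouts, with control replicate 2 inside the knockout range (-2.10, SE 0.514). On HFD Gm12888 was at -0.26 (SE 0.775), and the groups overlapped. Whether these 2 genes share reads was not examined. Zfp454, a zinc finger protein, had between 0.748 and 1.38 TPM in controls and between 0.412 and 0.709 TPM in knockouts (-1.24, SE 0.333). DESeq2 called these 3 and Tmem120a as lower.

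The remaining genes of this group differed by less. Anxa3, an annexin, had between 58.7 and 70.6 TPM in controls and between 43.6 and 58.0 TPM in knockouts, a log2 fold change of -0.41, and 1700019E19Rik one of -0.52, both without overlap of the groups. Arrdc3 (-0.41), an arrestin-related protein, Nupr1 (-0.54), a stress-induced nuclear protein, and Ear2 (-0.65), an eosinophil ribonuclease with near-identical paralogs, overlapped in TPM. So did 2310028O11Rik (-0.58), 2900073G15Rik (-0.39) and 1110057K04Rik (-0.32). On TMM scaled counts the groups did not overlap for Arrdc3, Ear2, 2900073G15Rik and 1110057K04Rik (0.369% of all genes). They still overlapped for Nupr1 and 2310028O11Rik. None of these was called by edgeR or by DESeq2 on the same genes.

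Cell proliferation genes were higher in knockouts by count. On a list of 20 genes that dividing cells express, 20 were tested and 20 had a log2 fold change above 0 in knockouts, against 47.2% of all genes, with a median of 0.64 against -0.02. An unadjusted p under 0.05 was reached by 8 of them (3.35% of all genes in this direction). In 5 the groups did not overlap in TPM (1.3% of all genes), and in 7 on TMM scaled counts (0.725% of all genes). edgeR called 0 of the 20 and DESeq2 called 3, Mki67, Top2a and Rrm2. Genes of a list rise and fall together and are not independent replicates.

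Mki67, the classical marker of cycling cells, had 4.24, 6.11, 6.41, 4.98 and 4.05 TPM in controls and 9.28, 13, 9.07, 22.4 and 9.02 TPM in knockouts. The groups did not overlap, and knockout replicate 9 was the highest. On the log2 scale the difference was 1.17 (SE 0.271). Top2a, the topoisomerase of dividing cells, had 4.96, 8.06, 8.07, 7.61 and 4.81 TPM in controls and 13.3, 13.5, 12.95, 25.7 and 11.8 TPM in knockouts (1.21, SE 0.289). Rrm2, a subunit of ribonucleotide reductase, was at 1.04 and Tpx2, a spindle assembly factor, at 1.09. For both the groups overlapped in TPM and did not overlap on TMM scaled counts. Ccna2, encoding cyclin A2, had between 3.37 and 6.21 TPM in controls and between 7.27 and 11.7 TPM in knockouts (1.02). The smallest value of the list was that of Mcm3, a subunit of the replicative helicase, at 0.22.

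Outside the list, 3 more genes of cell division were among the 12 of smallest p. Kif11, the mitotic kinesin that separates spindle poles, had between 1.57 and 2.79 TPM in controls and between 4.03 and 5.98 TPM in knockouts (1.07, SE 0.233). Ncapd2, a condensin subunit, was at 0.58, and Casc5, a kinetochore scaffold, at 1.23, with 13.8 TPM in knockout replicate 9 against 2.16 to 4.98 TPM in the other knockouts. The groups did not overlap for any of these 3. DESeq2 called Kif11 and Ncapd2 and not Casc5. These 3 genes were put together after their values were seen.

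Promoters of proliferation genes commonly carry CCAAT boxes and the cell cycle homology region (CHR), and those of Mki67 and Top2a are shown because these list members had the smallest p. Each run holds the 250 bases before the transcription start from RefSeq on GRCm38.p6, 5′ to 3′ on the strand of the gene, and capitals mark matches to CCAAT on either strand (also written ATTGG) and to the CHR, as TTTGAA, its reverse complement TTCAAA or TTCGAA.
Mki67, chr7:135716380-135716629: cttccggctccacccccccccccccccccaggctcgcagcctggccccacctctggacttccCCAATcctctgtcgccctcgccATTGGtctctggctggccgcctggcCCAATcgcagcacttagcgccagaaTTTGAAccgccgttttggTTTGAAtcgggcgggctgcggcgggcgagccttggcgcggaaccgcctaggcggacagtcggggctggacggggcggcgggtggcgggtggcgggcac
Top2a, chr11:99024190-99024439: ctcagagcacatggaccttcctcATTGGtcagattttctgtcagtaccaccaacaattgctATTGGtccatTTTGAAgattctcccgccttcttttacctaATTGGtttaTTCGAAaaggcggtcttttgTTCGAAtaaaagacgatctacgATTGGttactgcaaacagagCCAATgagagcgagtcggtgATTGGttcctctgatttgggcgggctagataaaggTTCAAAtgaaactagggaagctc
Mki67 held 3 matches to CCAAT and 2 to the CHR, and Top2a 6 and 4. Of the 20 list members, 17 had 1 promoter each in the RefSeq table, of which 15 (88.2%) held CCAAT, against 33.8% of all 32851 promoters, and 7 (41.2%) held a CHR match, against 17.1%. A match describes these letters and not a site in use. These shares describe the promoters of the list and are no comparison of knockout with control.

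Summed over the 20 genes, proliferation transcripts were at 128, 131, 137, 115 and 106 TPM in controls and 153, 175, 174, 269 and 213 TPM in knockouts. All knockout libraries lay above all controls, with knockout replicate 9 highest and control replicate 5 lowest. On HFD the sums ranged from 167 to 269.7 TPM in control and from 160.3 to 340.1 TPM in knockout libraries, so control libraries on LFD were the lowest of the 4 groups. The median log2 fold change of the list on HFD was 0.09, with 14 of 20 above 0. For 6 of the 20 the effects on the 2 diets differed at an unadjusted interaction p under 0.05 (3.6% of all genes). They included Mki67 (difference 1.10), Top2a (1.13) and Ccna2 (1.17), and none passed the adjustment over 15574 genes (adjusted p = 0.9999, edgeR).

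**Figure D3:**
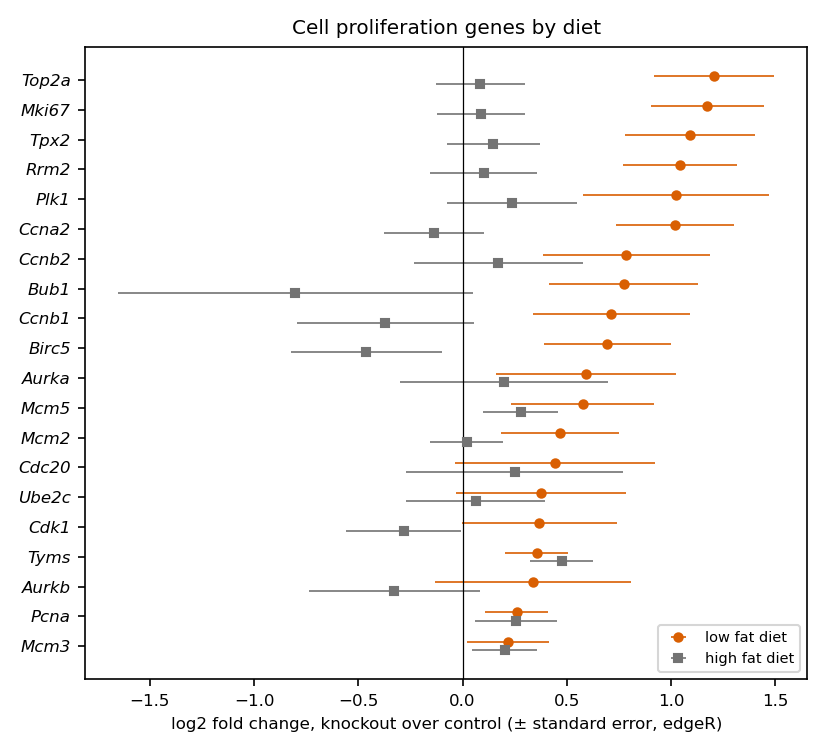
Log2 fold change of knockout over control, with its standard error from edgeR, for the 20 proliferation genes on LFD (circles) and HFD (squares). All 20 circles lie above 0, with a median of 0.64, while the squares lie on both sides, with a median of 0.09.

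Lymphocyte genes varied beside these values. The 22 genes of B and T lymphocytes summed to 18.3, 247, 317, 356 and 79.9 TPM in controls and to 392, 301, 199, 222 and 366 TPM in knockouts. Control replicates 1 and 5 stood below all other LFD libraries, and Ms4a1, encoding CD20, was at 0.075 TPM in control replicate 1 against 15.3 to 57.2 TPM in knockouts. Of the 22 genes 21 were above 0, with a median of 0.39, and 0 reached an unadjusted p under 0.05. Cd3e, part of the T cell receptor complex, was at 0.997 (SE 0.476) and Cd4 at 0.78. With control replicates 1 and 5 left out, a choice made after the values were seen, lymphocyte genes had a median of -0.22 with 4 of 22 above 0. The proliferation genes then had a median of 0.40 with 18 of 20 above 0 and 5 at an unadjusted p under 0.05. Without knockout replicates 9 and 10, which had the fewest transcripts detected, the proliferation median was 0.68 with 19 of 19 above 0. Over the fits that each left out 1 library it ranged from 0.46, without knockout replicate 9, to 0.77, and the number at an unadjusted p under 0.05 from 5 to 9.

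Fatty acid oxidation genes, which encode the mitochondrial and peroxisomal steps of fat burning, lay on the other side. All 20 tested had a log2 fold change below 0, against 52.8% of all genes, with a median of -0.40, and 2 reached an unadjusted p under 0.05 (1.76% of all genes lower). edgeR and DESeq2 called 0, and no member had groups without overlap. Etfa, an electron transfer flavoprotein, had 113, 91.7, 114, 79.8 and 116.5 TPM in controls and 89.2, 87, 105, 66.2 and 91.0 TPM in knockouts (-0.37, SE 0.147). Ehhadh, a peroxisomal bifunctional enzyme, was at -0.65 and Acadm, the medium-chain acyl-CoA dehydrogenase, at -0.35. Summed TPM was 1419, 1430, 1885, 2277 and 2079 in controls and 1494, 1970, 1556, 1424 and 1370 in knockouts, so control replicates 1 and 2 lay among the knockouts. On HFD the median was 0.12 with 13 of 20 above 0, and 3 genes had an interaction p under 0.05 without adjustment (3.6% of all genes). Leaving out 1 library moved the LFD median between -0.55 and -0.24 and the number at an unadjusted p under 0.05 between 0, without control replicate 3 or 5, and 10, without control replicate 1. With a covariate for transcripts detected the LFD median was -0.16 with 18 of 20 below 0.

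Genes of brown and beige fat varied with the same libraries. Ucp1, the uncoupling protein of thermogenic fat, had 13.7, 10.4, 100.4, 82.5 and 133 TPM in controls and 29.8, 69.3, 25.4, 14.8 and 7.23 TPM in knockouts. Controls were low in replicates 1 and 2 and high in the others, and the knockout range overlapped both. The log2 difference was -1.40 (SE 0.73). Of 15 genes tested 13 were below 0 (52.8% of all genes), with a median of -0.78, and 1 had an unadjusted p under 0.05 (1.76% of all genes lower), the fatty acid transporter Slc27a2 at -1.56. Fabp3, a fatty acid binding protein, was at -1.40 (-0.65 without control replicate 5), Cox8b, a cytochrome oxidase subunit, at -1.07 (-0.41 without control replicate 4) and Cidea, a lipid droplet protein, at -0.82, whereas Ppargc1a, the coactivator of mitochondrial genes, was at 0.22. The highest log2 fold change of the list was 0.64. Without 1 library the median lay between -1.10 and -0.41, and the number at an unadjusted p under 0.05 on the lower side between 0 and 4. With limma, at either pseudocount, 13 of 15 were below 0. There 2 genes above 0 and 0 genes below 0 had an unadjusted p under 0.05. The list summed to 125, 188, 580, 796 and 712 TPM in controls and to 251, 537, 271, 217 and 76.5 TPM in knockouts. On HFD the median was 0.54 with 13 of 15 above 0, and 7 of 15 had an unadjusted interaction p under 0.05 (3.6% of all genes), with Fabp3 and Ucp1 among them, each at an adjusted p of 0.9999 (edgeR). Muscle also expresses several of these genes, and the muscle fibre sums given below differed between the same libraries. Their part in the result was not tested.

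White adipocyte genes lay mostly below 0. Of 25 tested, 23 were below 0 (52.8% of all genes), with a median of -0.22, and 2 had an unadjusted p under 0.05 (1.76% of all genes lower). The latter number was 0 to 4 without 1 library, and with limma it was 0, with 19 of 25 below 0. Pparg, the master regulator of adipocyte differentiation, had 169, 129.5, 139, 163 and 138 TPM in controls and 113, 128, 139, 99.5 and 131 TPM in knockouts (-0.37, SE 0.145). Pck1, the enzyme of glyceroneogenesis, was at -0.64 and Cfd, the adipokine adipsin, at -0.81, with control replicate 4 highest at 5349 TPM, and Cfd was at -0.24 without that library. Among lipolysis genes 10 of 14 were below 0 (median -0.23), and none had an unadjusted p under 0.05, the smallest p being that of the droplet protein Plin5 at -1.09. Synthesis genes for fatty acids and triglycerides split 10 above and 13 below (median -0.05), with Gpam, the first acyltransferase of triglyceride synthesis, at -0.56 (SE 0.214). Insulin and glucose uptake genes had a median of -0.04, and Tbc1d4, the Akt substrate that gates glucose transporter traffic, had 24.8 to 31.4 TPM in knockouts against 17.3 to 24.4 TPM in controls (0.34, SE 0.134), with groups that overlapped on TMM scaled counts and an unadjusted p above 0.05 in 5 of 10 fits without 1 library. Cholesterol genes (10 of 17 above 0, median 0.03) and clock genes (8 of 16, median 0.05) were near the middle of all genes, and neither list held a gene at an unadjusted p under 0.05.

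Fat progenitor and stromal genes were below 0 in 17 of 19 (52.8% of all genes), with a median of -0.27, and 5 had an unadjusted p under 0.05 (1.76% of all genes lower). Without 1 library the median lay between -0.33 and -0.15 and that number between 2 and 6. With limma 11 of 19 were below 0 (median -0.10) and 0 had an unadjusted p under 0.05. Pdgfra, the receptor that marks fat progenitors, had 39.6, 47.2, 36.7, 35.7 and 39.0 TPM in controls and 36.1, 33.7, 38.7, 27.2 and 26.4 TPM in knockouts (-0.39, SE 0.123). On HFD it was 0.33, and the effects differed by -0.71 (adjusted p = 0.976, edgeR). DESeq2 called this difference. Pi16 and Ly6a, surface markers of progenitors, were at -0.42 and -0.52, and F3, tissue factor, at -0.51. Pparg, counted above among white adipocyte genes, was also among the 5. Fat expansion markers were below 0 in 9 of 9 (median -0.21), with Mest at -1.23 and Sfrp5 at -1.11, and controls ranged from 4.22 to 174 TPM for Mest and were at most 17.3 TPM for Sfrp5. Without control replicate 5 Mest was at -0.37 and Sfrp5 at -0.69. The list median was -0.06 without control replicate 1, with 3 of 9 above 0, and 0.016 without control replicates 1 and 5, with 5 of 9 above 0. With limma 4 of 9 were above 0. Endothelial genes had a median of -0.11 over 15, with the lipase anchor Gpihbp1 at -0.30 (SE 0.123).

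**Figure D4:**
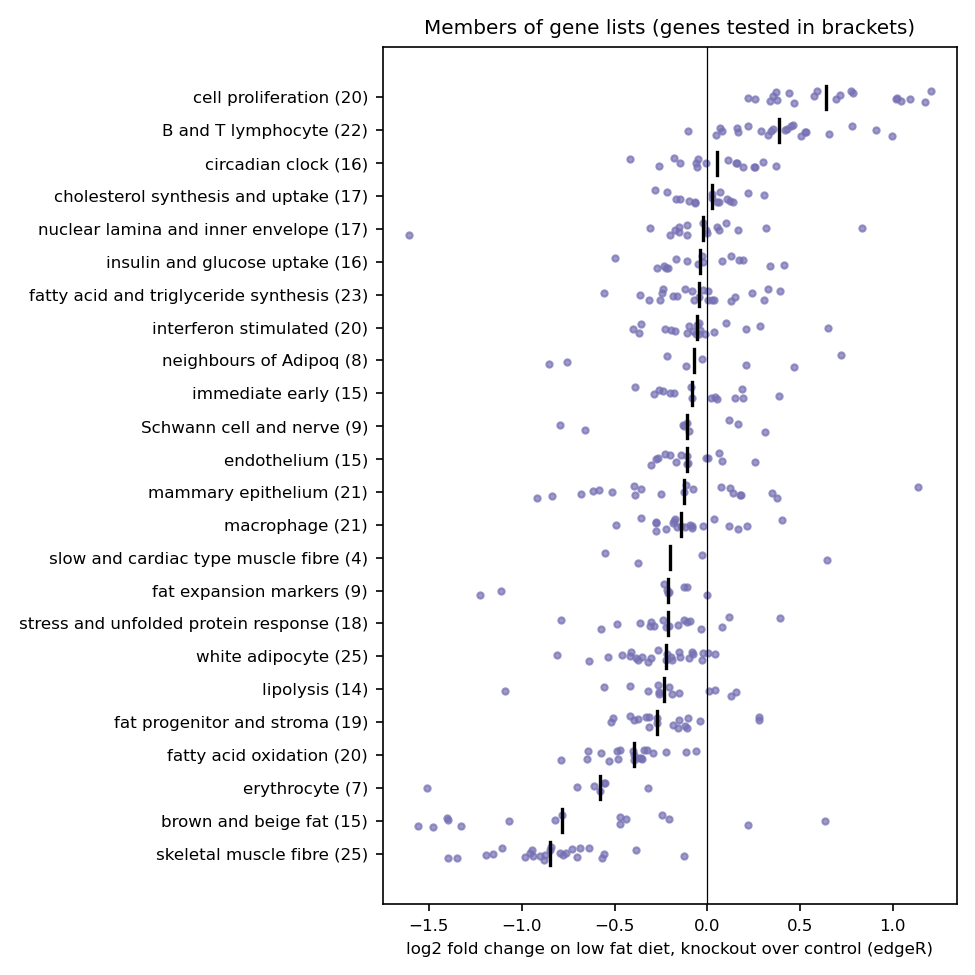
Log2 fold change on LFD of each tested member of 24 gene lists, without the lists of skin and hair, sex-linked genes and the mixed list with Gm11868, with the list's median as a vertical bar and the number of genes tested in brackets. Proliferation genes lie wholly above 0 (median 0.64) and oxidation genes wholly below (median -0.40). The muscle fibre list depends on 1 control library.

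Muscle genes varied with single libraries. Skeletal muscle fibre genes summed to 149, 108, 417, 255 and 4881 TPM in controls and to 1067, 721, 163, 1573 and 95.03 TPM in knockouts. All 25 tested had a log2 fold change below 0, with a median of -0.85, and without control replicate 5 the median was 1.68 with 22 of 24 above 0, so the direction rests on that library. Ckm, muscle creatine kinase, was at 178 TPM in control replicate 5 and between 0.09 and 10.6 TPM in the other controls. With limma on TPM the median was 0.24, with 17 of 25 above 0. For 22 of the 24 genes tested on both diets the effects differed at an unadjusted interaction p under 0.05 (3.6% of all genes). Of these 0 passed the adjustment (edgeR), and the HFD median was 4.65. That count includes control replicate 5, and the count without it is not given here. Slow and cardiac type fibre genes had 4 tested members with a median of -0.20.

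Hair and skin genes were high in knockout replicate 7 alone, whose summed TPM was 273 against 7.01 to 36.8 in the other LFD libraries. Krt25, a hair keratin, was at 54.6 TPM in it and at most 0.589 TPM in the other LFD libraries, and the list median was 5.16 over 9 genes. Without this library 4 genes passed the minimum of 0.5 TPM, and their median was -2.99. Mammary genes were split 8 above and 13 below 0 (median -0.13), with the milk proteins Csn3 at -0.92 (SE 0.303) and Ltf at -0.68 (SE 0.25). Erythrocyte genes were below 0 in 7 of 7 (median -0.58). Their median was -1.21 without knockout replicate 7, -0.36 without control replicate 4, -0.14 without knockout replicates 9 and 10, and -0.08 with 2 of 7 above 0 under the transcript covariate. Macrophage genes (5 of 21 above 0, median -0.14), Schwann cell and nerve genes (3 of 9, median -0.11), interferon stimulated genes (5 of 20, median -0.06) and immediate early genes (7 of 15, median -0.08) held no gene at an unadjusted p under 0.05. Stress and unfolded protein response genes held 1, Asns, the asparagine synthetase, at -0.36, with 15 of 18 below 0. On a mixed list of 18 genes, most of them named by the study and 1 of them Gm11868, which it does not name, 14 were tested. Of these 3 were above 0, Gm11868 included (median -0.30), and the list of sex-linked genes held 1 tested gene, at 0.42.

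**Figure D5:**
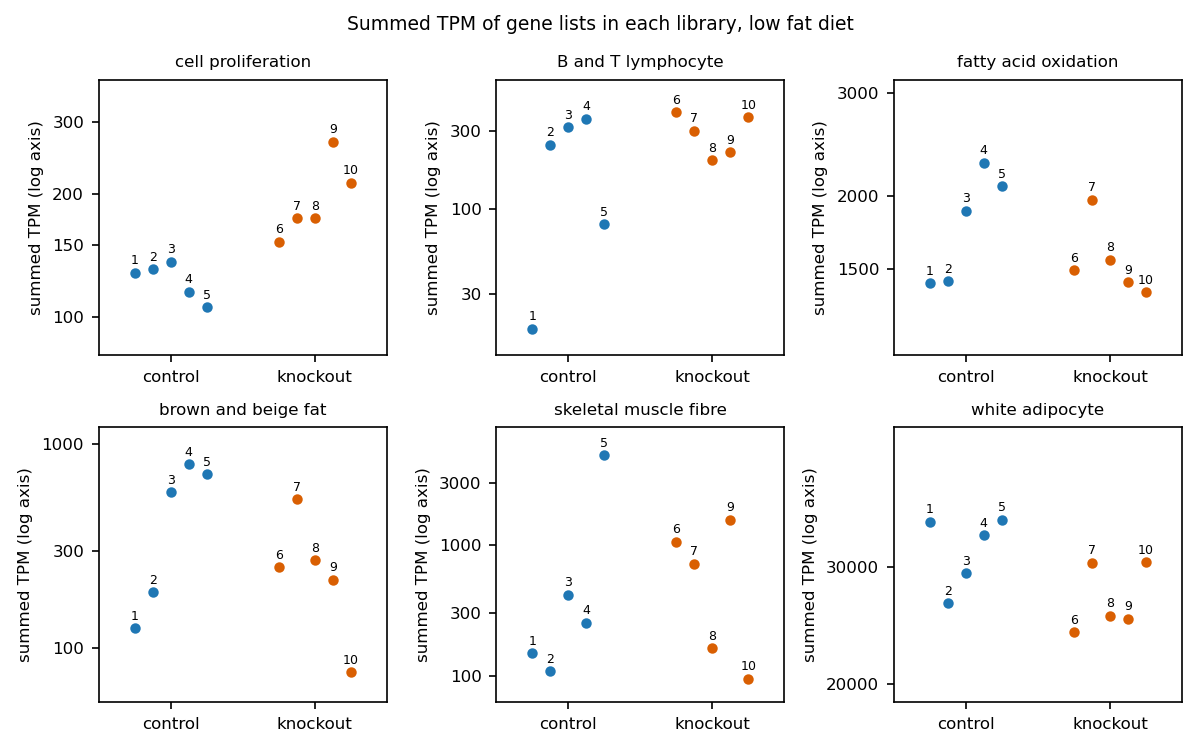
Summed TPM of 6 gene lists in each LFD library on logarithmic axes, with 1 point per library labelled by replicate number. Proliferation sums separate the groups (106 to 137 TPM in controls, 153 to 269 in knockouts), lymphocyte sums are lowest in control replicates 1 and 5, and the muscle sum is highest in control replicate 5 at 4881 TPM.

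The Cre transgene is driven by the promoter of Adipoq, so genes around it on chromosome 16 were listed too. Of 14 listed genes, Adipoq itself included, 8 were tested and 3 were above 0. In TPM 2 were higher without overlap (1.3% of all genes), Rfc4 and Eif4a2, and on TMM scaled counts 1 (0.725% of all genes), Rfc4. Rfc4, a subunit of the replication factor C clamp loader (chr16:23114016-23127810), had 9.60, 8.78, 8.04, 9.85 and 7.70 TPM in controls and 15.8, 13.2, 13.97, 15.5 and 19.01 TPM in knockouts (0.72, SE 0.197). Eif4a2, a translation initiation helicase (chr16:23107517-23114209), whose annotated span overlaps that of Rfc4, had 376, 331, 326, 383 and 386 TPM in controls and 514, 509, 425, 640.2 and 587 TPM in knockouts (0.47, SE 0.154). On HFD their log2 fold changes were 0.66 (SE 0.227) and 0.80 (SE 0.13). Adipoq itself was at -0.22 on LFD, with 687 to 1156 TPM in controls and 638 to 928 TPM in knockouts. DESeq2 on the same genes called neither neighbour on LFD.

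The difference between the genotype effects on LFD and HFD was tested for 15574 genes. edgeR called 0 at an adjusted p under 0.1, with 560 (3.6%) at an unadjusted p under 0.05, and DESeq2 called 17, of which 10 were positive and 7 negative. No gene named here had groups separated upwards on one diet and downwards on the other.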

How the data were processed

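RNA depleted of ribosomal RNA was sequenced as stranded pairs from 20 libraries, of which the 10 on LFD are described. The authors quantified each library with Salmon 0.13.1 on Ensembl transcripts of NCBIM37 (mm9) and deposited estimated counts with no normalization between libraries. The TPM values, deposited by the authors beside them, come from the same quantification. The submitters' processing notes also name STAR 2.5.3. The reference annotation used here, GENCODE vM1, is of the same assembly and held 94334 of 96533 transcripts (97.7%), which were summed to 36611 genes.

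Rounded gene sums were tested with edgeR 4.0.16 (quasi-likelihood, TMM, R 4.3.3) for genes averaging 0.5 TPM or more in the 10 libraries. A call was a Benjamini-Hochberg adjusted p below 0.1. Standard errors were taken as the log2 fold change over the root of the F statistic. DESeq2 1.42.0 and limma 3.58.1 were alternatives, and the interaction used all 20 libraries with the same minimum. Levels of Tmem120a and its transcripts were compared over all 252 assignments on log2(TPM + 1). Fold changes are log2 of knockout over control on the count scale, and floors of 3 counts cover counting error only. Named genes were Tmem120a, Tmem120b, called genes, the 12 of smallest p in each direction and members of 27 lists, described by counts and medians with no list test. Of a list's members the text names those of small p or high level and some known for their role. Cyb5r4 and the grouping of Kif11, Ncapd2 and Casc5 came after sight of the values. The comparison, members and lists were chosen with earlier results of these data known. Motifs were searched as exact letters. The fits were tested on simulated data. The labels give no batch and do not say whether numbers mark a cage or day. Some list members are not reported here.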

Additional observations from a re-analysis of the deposited data

Results flagged for a closer look

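In 102 groups of 5 LFD libraries (the 24 genes of smallest p, Tmem120a among them, and the sums of the 27 lists, in each genotype), 7 held 1 library whose gap to the next exceeded 0.71 of the range on log2(TPM + 1), where chance flags about 1 in 20 groups. Among sums, insulin and glucose uptake genes stood at 888.5 TPM in control replicate 5 against 636 to 682 TPM in the other controls. Skin and hair genes stood at 273.3 TPM in knockout replicate 7 against 7.01 to 12.8 TPM in the other knockouts, and interferon stimulated genes at 530.6 TPM in knockout replicate 8 against 287 to 342 TPM. Among genes, Top2a stood at 25.7 TPM in knockout replicate 9 against 11.8 to 13.5 TPM, and Nupr1 at 38.3 TPM in control replicate 3 against 53.1 to 60.3 TPM. Gm16698 in control replicate 3, at 0.0809 TPM, and Gm12886 in knockout replicate 6, at 0.0301 TPM, stood out only against groups otherwise at 0. No difference between the diets passed the adjusted threshold in edgeR.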

How the results depend on the processing

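The number of genes called on LFD was 1 in edgeR and 17 with DESeq2, 30 with DESeq2 and no filter on low values, and 2 with limma at either pseudocount, with all 20 libraries in 1 fit and, chosen after the data were seen, with a covariate for transcripts detected. Leaving out 1 library gave 1 to 2, the higher without control replicate 1. For the difference between diets edgeR called 0, also without any 1 library (0 to 0), and DESeq2 17. The Tmem120a level kept its direction in every fit. DESeq2 called it, at -1.605 with the filter and -1.613 without, and the fits without 1 library gave -1.879 to -1.35. Its mean log2(TPM + 1) difference of -1.113 ranged from -1.354 to -0.9197 without 1 library, and the exact permutation p then ranged from 0.0159 to 0.0635 and was above 0.05 in 6 of 10. The value of Tmem120b on LFD turned positive with DESeq2 (0.002487), DESeq2 size factors in edgeR (0.002543), at least 1 TPM (0.014), length offsets (0.0774), limma (0.188 and 0.192), all libraries (0.0112), the transcript covariate (0.474) and without knockout replicates 9 and 10 (0.302), and lay between -0.344 and 0.386 without 1 library. Cyb5r4 turned positive with length offsets (0.124) and limma (0.189 and 0.194), Ckm with limma (0.267 and 0.319), without control replicates 1 and 5 (1.26) and without 1 library (-1.486 to 1.61), and that of Ppargc1a on LFD turned negative without knockout replicates 9 and 10 (-0.03935). List medians moved by more than the SD between libraries of a group (of the median log2(TPM + 1) over the list) for muscle fibres (-1.348 to 1.68 without 1 library, 1.364 without control replicates 1 and 5), slow fibres (-0.844 to 0.356 without 1 library), skin and hair (-2.994 to 5.857, and 0.597 with limma), proliferation (0.3996 without control replicates 1 and 5) and the mixed list with Gm11868 (from -0.30 to -0.0749 with limma). That of lymphocytes, whose SD between libraries is wider, went from 0.39 to -0.22 without control replicates 1 and 5, 1.13 with the transcript covariate and 0.70 and 1.06 with limma. No paired analysis was possible because the labels give no litter and no pairing of libraries. Depth limits genes near 0.5 TPM most, and with 5 libraries a group a p above the threshold does not show that a gene is equal.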
